A study of Mus musculus with 6 samples.

Results

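The integrin and laminin genes are described here across 6 RNA-seq libraries of mouse oviductal smooth muscle cells. Members were chosen by symbol alone: every protein-coding gene of the deposited table that encodes an integrin subunit (Itga or Itgb) or a laminin chain (Lama, Lamb or Lamc), leaving out the integrin-binding proteins and Itgbl1. The rule took 38 of the 54232 genes in the table, 27 integrins (18 alpha and 9 beta subunits) and 11 laminins. It used no measured value.

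Primary smooth muscle cells were prepared from the oviducts of mated mice of 8 to 12 weeks on day 2 (D2) of pregnancy, with 3 libraries of WT mice and 3 of mice carrying a conditional Pbrm1 deletion (Pbrm1 cKO). In the study, floxed Pbrm1 (Pbrm1 fl/fl) was deleted with PR-IRES-cre, in which cre is expressed from the progesterone receptor locus, so that deletion is limited to cells that express or have expressed this receptor. The labels name the controls WT, whereas a supplementary legend of the study names floxed mice. The minced tissue was digested with trypsin, collagenase and dispase, filtered, and cultured for some hours in serum before total RNA was taken. The labels give no strain and do not say whether a library holds 1 animal or a pool, and p-values therefore measure the spread between these libraries only.

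Pbrm1, a component of the PBAF chromatin remodeler, fell by 1.94 on the log2 scale in cKO, to 26.0% of WT. Library totals lay between 15390818 and 18947947 counts. The library of cKO replicate 2 stood apart from the others of its group, with a chi-square per gene of 6.32 and 7.48 against them, beside 2.77 to 3.88 for the other pairs of libraries within a group. Without it no called member lost its call. The label was compared with markers, which alone cannot settle the cell type: all 12 smooth muscle markers examined were expressed. Their summed level was 5226 to 5391 CPM in WT and 6440.3 to 7036 CPM in cKO (CPM are counts scaled to a common library size). Tagln, Cald1 and Acta2 carried most of that sum, with WT means of 1598, 1354 and 1287 CPM. Each of the others averaged at most 256 CPM in WT, with Myh11 at 88.2 and Cnn1 at 62.1 CPM. Markers of other cells were also found, with sums of 4852 to 5423 CPM in WT and 7197 to 7491 CPM in cKO for 8 fibroblast genes, 1141 to 1241 and 1394 to 1555 CPM for 12 epithelial genes, 742 to 793 and 1049 to 1136 CPM for 14 leukocyte genes, 387 to 409.6 and 338 to 350.2 CPM for 11 endothelial genes, and 207 to 217 and 157 to 159 CPM for 6 mesothelial genes. Col1a1 and Col3a1 carried most of the fibroblast sum (WT means 2612 and 1417 CPM), and Pdgfra was at 747 CPM in WT. Each library thus held RNA of several cell types, and in such bulk samples fewer cells of a type and less RNA per cell cannot be told apart.

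Integrins are receptors on the cell surface made of 1 alpha and 1 beta subunit, and the pair decides which matrix protein or cell surface ligand is bound. Laminins are secreted trimers of an alpha, a beta and a gamma chain that form the sheet-like core of basement membranes, including the one that wraps each smooth muscle cell. Cells hold on to laminin through integrins and dystroglycan, and their actin filaments are tied to the receptors from the inside, a link through which contracting muscle transmits force.

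Differences between the groups were found for most members, in both directions. Of the 35 members with enough counts to be tested, 28 (80.0%) had an adjusted p-value under 0.05 in edgeR's quasi-likelihood test (Benjamini-Hochberg over all tested genes), 18 up and 10 down in cKO. The same threshold called 43.7% of all 15376 tested genes, 21.9% higher and 21.8% lower. For 28 members all cKO libraries lay on the same side of all WT libraries in CPM, which held for 53.5% of all tested genes. Among laminins, 10 of 11 were called, 6 higher and 4 lower, and among integrins 18 of 24, 12 higher and 6 lower. The median log2 fold change of cKO against WT was 0.29 for all 35 tested members, beside 0.0016 for all tested genes. Most differences were small: among the called members the median absolute log2 fold change was 0.43, beside 0.40 among all called genes, and 2 members, Itga11 and Itga8, exceeded 1.

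**Figure D1:**
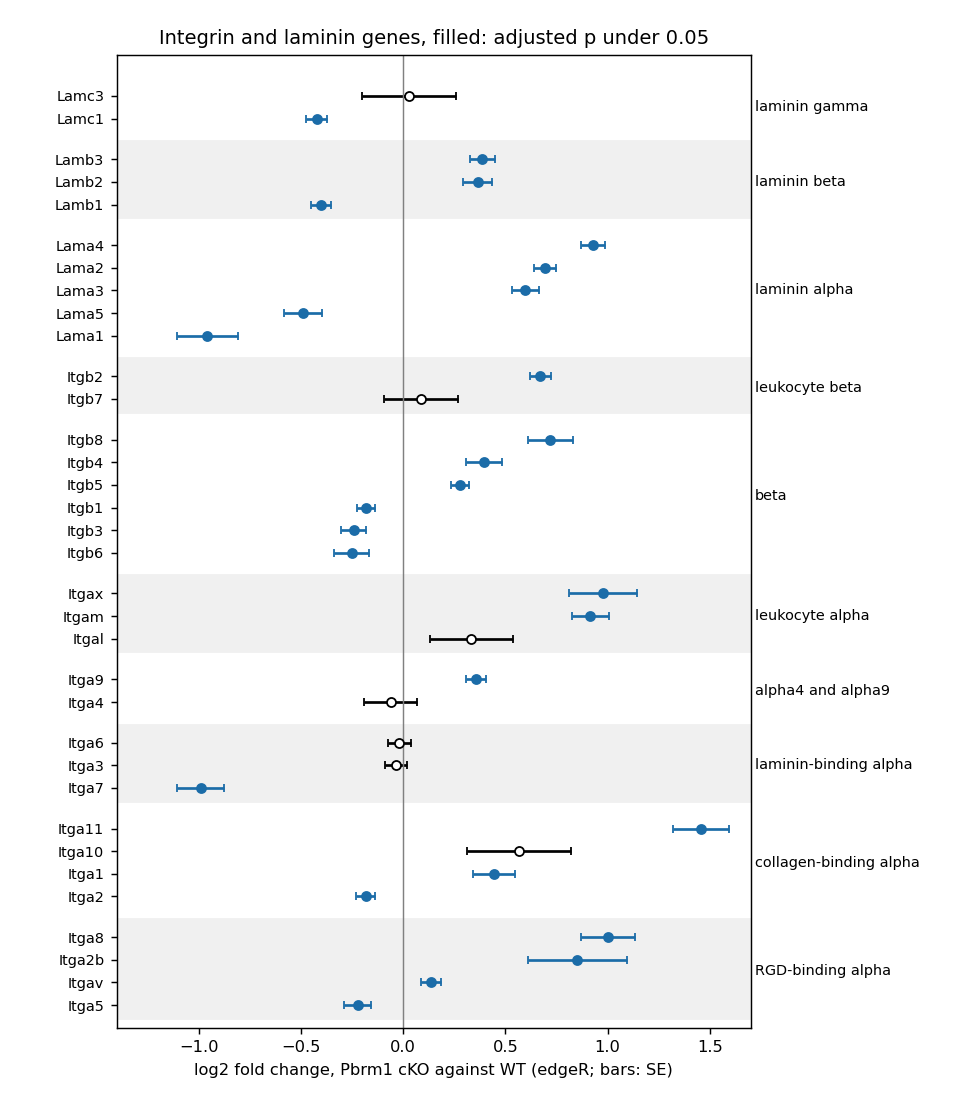
Log2 fold change of Pbrm1 cKO against WT (x axis) for tested integrin and laminin genes, grouped by role, with bars for the SE of the fit over 3 libraries per group; filled points had an edgeR adjusted p-value under 0.05. Points run from -0.99 for Itga7 to 1.46 for Itga11, and each group with more than 2 genes, other than leukocyte and laminin-binding alpha subunits, holds filled points on both sides of 0.

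All 5 laminin alpha chains differed, Lama4, Lama2 and Lama3 upward and Lama1 and Lama5 downward. Lama4 (GRCm38, as all gene positions here; chromosome 10, 38965515 to 39110188), a chain of vessel and muscle basement membranes, was at 93.3, 92.5 and 87.6 CPM in WT replicates 1, 2 and 3 and 177, 158 and 186 CPM in cKO replicates 1, 2 and 3. It rose to 190.4% of the WT mean (log2 fold change 0.93, SE 0.06, edgeR adjusted p = 7.1e-08), the lowest adjusted p-value among the members. All 3 cKO libraries lay far above all 3 WT libraries. Lama2 (chromosome 10, 26980036 to 27619758), the chain of the muscle basement membrane whose loss causes a congenital muscular dystrophy, was at 46.9, 49.5 and 44.8 CPM in WT and 77.9, 76.3 and 74.2 CPM in cKO. The libraries of each group lay close together and the groups were well separated (log2 fold change 0.69, SE 0.054, edgeR adjusted p = 3.8e-07).

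Lama3, which anchors epithelia to their basement membrane, was at 72.1, 81.9 and 70.1 CPM in WT and 121, 108 and 110.1 CPM in cKO, again without overlap (log2 fold change 0.60, SE 0.064, edgeR adjusted p = 6.5e-06). Lama1 (chromosome 17, 67697265 to 67822645), a chain best known from embryonic and epithelial basement membranes, went the other way, with 44.97, 49.6 and 43.4 CPM in WT and 28.1, 15.8 and 27.6 CPM in cKO. The cKO libraries were uneven, replicate 2 being the lowest, but even the highest of them was below all WT libraries. Lama1 fell by 0.96 on the log2 scale (SE 0.15, edgeR adjusted p = 0.000173), and by 0.72 without cKO replicate 2. Lama5 (chromosome 2, 180176373 to 180225859), a widespread chain of adult basement membranes, was at 68.7, 55.3 and 50.2 CPM in WT and 43.6, 40.2 and 40.3 CPM in cKO. WT replicate 1 was the highest library and the groups did not overlap (log2 fold change -0.49, SE 0.093, edgeR adjusted p = 0.000837).

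The 250 bases before the RefSeq start of Lama2 and of Lama5 are given because these chains moved in opposite directions (RefSeq, GRCm38.p6, minus strand, 5′ to 3′; chr10:27616943-27617192 and chr2:180225860-180226109). Capitals mark a CArG box, the motif bound by serum response factor, found 39 to 30 bases before the start of Lama2.
Lama2: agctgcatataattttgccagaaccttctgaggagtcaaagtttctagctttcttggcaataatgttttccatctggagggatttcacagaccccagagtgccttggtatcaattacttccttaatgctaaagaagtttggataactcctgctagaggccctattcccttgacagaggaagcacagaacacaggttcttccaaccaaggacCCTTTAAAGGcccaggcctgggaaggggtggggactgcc
Lama5: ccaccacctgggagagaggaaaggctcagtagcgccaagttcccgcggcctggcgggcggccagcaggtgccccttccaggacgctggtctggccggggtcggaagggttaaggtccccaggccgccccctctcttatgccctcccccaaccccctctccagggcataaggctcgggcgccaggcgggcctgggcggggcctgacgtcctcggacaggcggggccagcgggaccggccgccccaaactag
The Lama2 start used by RefSeq lies inside the span of the deposited gene model, which reaches further upstream. Of these windows that of Lama2 held 47.2% G and C and that of Lama5 72.4%. This and 2 other motifs were searched on both strands of the 250 bases for the 24 members that have an entry. The CArG box occurred in 2 member genes (Lama2 and Itgb6) and in 1.47% of 32851 promoters. For Itgb6 it is in the window chr2:60673694-60673943, which lies inside the span of the deposited gene model. The Itgb6 window at the upstream end of that model, chr2:60722604-60722853, does not hold it. GGAATG, the letters bound by TEAD factors, occurred in Itga10, Itgb1 and Lamb3 and in 12.6% of promoters. For Lamb3 it is in the window chr1:193301993-193302242 and not in that at chr1:193301744-193301993. TGANTCA, bound by AP-1, occurred in Itgax and in 6.75% of promoters.

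The most abundant beta and gamma genes, Lamb1 and Lamc1, fell, whereas Lamb2 and Lamb3 rose. Lamb1 (chromosome 12, 31265234 to 31329644) was at 505, 493 and 462 CPM in WT and 365, 386 and 352 CPM in cKO, a fall of 0.40 on the log2 scale (SE 0.049, edgeR adjusted p = 2.1e-05). Its partner Lamc1 (chromosome 1, 153218922 to 153332786), the gamma chain of most laminins, was at 599.7, 577 and 568 CPM in WT and 459, 403 and 439 CPM in cKO, a fall of 0.42 (SE 0.051, edgeR adjusted p = 1.9e-05). For both, every cKO library was below every WT library. Lamb2 (chromosome 9), a chain of the neuromuscular junction and of smooth muscle, was at 117, 106 and 98.4 CPM in WT and 145, 124 and 144 CPM in cKO (log2 fold change 0.36, SE 0.07, edgeR adjusted p = 0.000874). The lowest cKO library, replicate 2, was only a little above the highest WT library, replicate 1.

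Lamb3 (chromosome 1), which joins Lama3 in the laminin of epithelial anchorage, was at 34.2, 37.7 and 38.5 CPM in WT and 49.2, 46.6 and 48.7 CPM in cKO, without overlap (log2 fold change 0.39, SE 0.062, edgeR adjusted p = 0.000215). Lamc3, a gamma chain of few tissues, was near the lower end of what could be tested, at 1.54, 1.34 and 1.81 CPM in WT and 1.46, 1.80 and 1.48 CPM in cKO. Its groups overlapped, and the interval of the log2 difference ran from -0.42 to 0.48 (edgeR adjusted p = 0.935).

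**Figure D2:**
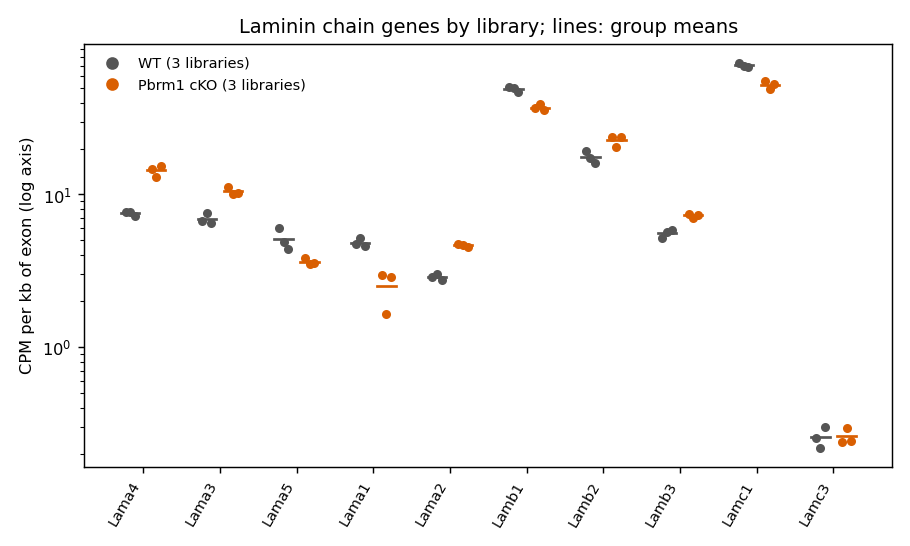
Level of each laminin chain per length (CPM per kilobase of exon, log axis) in each library, with lines at the group means of 3 WT and 3 Pbrm1 cKO libraries. Lamc1 and Lamb1 are the highest in both groups and lie lower in cKO, while Lamb2, Lamb3, Lama4, Lama3 and Lama2 lie higher in cKO.

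Levels can be compared between genes only per length, so CPM were divided by the exon length of the deposited table. On that scale the laminin beta genes summed to 72.2 ± 3.34 CPM per kilobase in WT and 67.0 ± 0.962 in cKO, and the alpha genes to 27.3 ± 1.58 and 35.7 ± 2.39 (SD, n = 3). The alpha sum was higher and the beta sum was lower in every cKO library than in every WT library. In WT, Lama4 and Lama3 were the highest alpha genes per length, and their libraries overlapped, as did those of Lama5 and Lama1. In cKO the order was Lama4, Lama3, Lama2, Lama5 and Lama1, and no neighbours in that order overlapped.

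As a share of the alpha level per length, Lama4 went from 27.7% ± 0.738 in WT to 40.3% ± 1.61 in cKO (SD, n = 3), Lama1 from 17.7% ± 0.780 to 6.94% ± 1.66, and Lama5 from 18.6% ± 2.48 to 10.2% ± 0.516. Lama3 went from 25.4% ± 1.48 to 29.5% ± 1.39 and Lama2 from 10.6% ± 0.282 to 13.1% ± 0.935. Among beta genes the share of Lamb1 went from 67.9% ± 0.312 to 55.3% ± 2.90, that of Lamb2 from 24.3% ± 1.03 to 33.8% ± 2.68, and that of Lamb3 from 7.73% ± 0.818 to 10.9% ± 0.228. None of these 8 shares overlapped between the groups, and all reached the smallest p that an exact permutation test of 3 against 3 libraries allows, 0.1 (two-sided, 0.125 adjusted over 35 integrin and laminin shares), so that the test cannot pass 0.05.

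**Figure D3:**
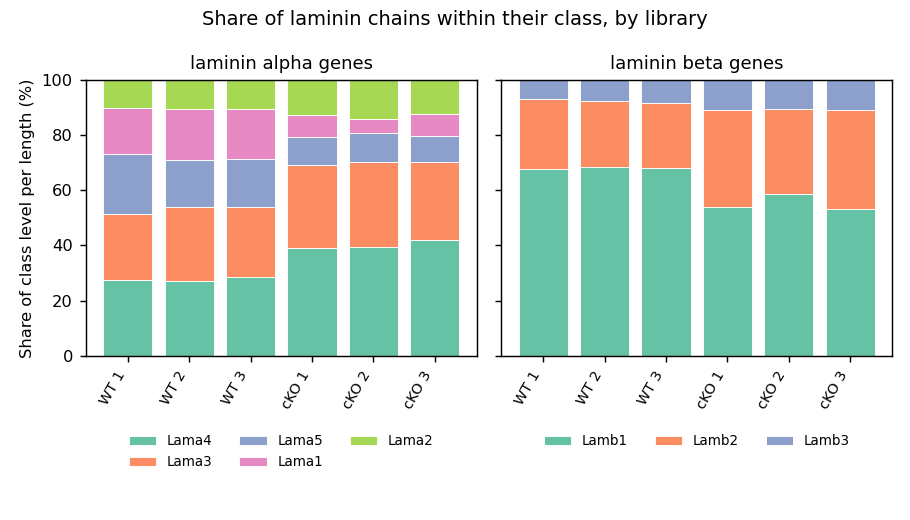
Share of each alpha (left) and beta (right) chain in the summed level per length of its class (y axis, percent) for the 6 libraries; each bar is 1 library. Lama4 takes 27.0% to 28.5% of the alpha level in WT libraries and 39.1% to 42.1% in cKO libraries, and the Lamb1 portion is smaller in each cKO library.

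Some ratios of these levels, chosen after the values were seen and given with no test, describe the balance between chains. Lama4 over Lama5 was 1.28 to 1.65 in WT and 3.70 to 4.36 in cKO, and Lama4 over Lamc1 was 0.106 to 0.110 in WT and 0.264 to 0.291 in cKO. Lamb1 over Lamb2 went from 2.797 ± 0.125 to 1.65 ± 0.227 (SD, n = 3). Lamb1 over Lamc1, the partners of most laminins, was 0.698 ± 0.0174 in WT and 0.710 ± 0.0763 in cKO, with overlapping groups.

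Most, but not all, epithelial markers were higher beside the epithelial chains. Of 12 epithelial markers 8 were called and all 8 were higher in cKO, Ovgp1 by only 0.17 on the log2 scale. The 4 not called were Cldn3 (log2 fold change 0.29), Foxj1 (-0.27), Pax8 (-0.12) and Krt7. Set against the sum of the 12 in each library, Lamb3 was slightly higher in cKO, without overlap. It was at 30.6 ± 0.563 CPM per 1000 CPM of epithelial markers in WT and 32.4 ± 1.04 in cKO (SD, n = 3). Lama3 was higher on that scale, at 62.1 ± 5.20 in WT and 76.0 ± 4.59 in cKO, without overlap. Krt8, Krt18 and Krt7 made up 63.2% of the epithelial sum in WT and had log2 fold changes of 0.18, 0.17 and -0.12. Epcam (log2 fold change 1.07), Krt19 (0.79), Elf3 (0.65) and Cldn4 (0.64) rose by more than Lama3 and Lamb3, so that against these markers neither chain was higher. Lama1 and Lama5 fell while 8 of these 12 epithelial markers were called higher. Of 6 mesothelial markers 4 were called, and all 4 were lower. The part of either marker set in the falls of Lama1 and Lama5 was not tested. For Lama4, of 11 endothelial markers 3 were called higher, 1 lower and 7 not called, with a median log2 fold change of -0.031. The lower one, Kdr, was the most abundant (means of 182 CPM in WT and 99.4 CPM in cKO), and the endothelial sum was lower in cKO without overlap. Of 5 pericyte markers 4 were called higher and 1 lower. The lower one, Cspg4, was the most abundant (means of 91.3 CPM in WT and 55.9 CPM in cKO). The pericyte sum overlapped between the groups (105 to 123 CPM in WT and 89.9 to 111 CPM in cKO). The part of endothelial cells and pericytes in the rise of Lama4 was not tested.

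Among integrin alpha subunits, 11 of 16 tested were called, 8 higher and 3 lower. The largest rise among all members was that of Itga11 (chromosome 9, 62677826 to 62783982), a receptor for fibrillar collagen that pairs with Itgb1 and is known from fibroblasts. It was at 5.97, 7.54 and 7.85 CPM in WT and 18.4, 23.3 and 16.8 CPM in cKO, and the lowest cKO library held more than any WT library by a wide margin. The cKO mean was 274% of the WT mean (log2 fold change 1.46, SE 0.14, edgeR adjusted p = 1.8e-06). Itga8 (chromosome 2, 12106632 to 12301922), a receptor of smooth muscle and other mesenchymal cells that also pairs with Itgb1, was at 4.73, 5.56 and 6.50 CPM in WT and 11.7, 9.81 and 12.2 CPM in cKO. The groups did not overlap (log2 fold change 1.00, SE 0.13, edgeR adjusted p = 4.5e-05).

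The 250 bases before the RefSeq start of Itga11 (plus strand, chr9:62677605-62677854) and of Itga8 (minus strand, chr2:12301945-12302194), the integrins with the largest rises, are given from RefSeq GRCm38.p6, 5′ to 3′. Neither held any of the motifs searched, which says only that those letters are not in these windows, and no base is in capitals. The last bases of the Itga11 window lie inside the first exon of the deposited gene model.
Itga11: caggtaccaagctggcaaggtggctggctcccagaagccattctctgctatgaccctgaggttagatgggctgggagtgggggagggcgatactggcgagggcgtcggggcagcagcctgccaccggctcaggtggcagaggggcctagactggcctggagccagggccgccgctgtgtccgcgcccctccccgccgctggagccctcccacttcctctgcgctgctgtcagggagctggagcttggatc
Itga8: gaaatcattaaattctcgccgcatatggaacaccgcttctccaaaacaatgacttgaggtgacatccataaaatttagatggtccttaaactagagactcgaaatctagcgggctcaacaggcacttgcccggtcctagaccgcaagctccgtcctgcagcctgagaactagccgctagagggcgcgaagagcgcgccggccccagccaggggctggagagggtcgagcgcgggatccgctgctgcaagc
G and C made up 68.4% of the Itga11 window and 56.4% of that of Itga8.

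Of 4 collagen-binding alpha subunits, Itga11 and Itga1 rose and Itga2 fell. Itga1 (chromosome 13, 114953096 to 115101964), which binds collagen IV of basement membranes, was at 17.2, 18.5 and 18.1 CPM in WT and 26.9, 20.3 and 26.3 CPM in cKO. Replicate 2 was the lowest cKO library and still lay above the WT libraries (log2 fold change 0.44, SE 0.1, edgeR adjusted p = 0.00294). Itga2 (chromosome 13, 114833081 to 114932100), which prefers fibrillar collagen, was at 210.1, 216 and 208 CPM in WT and 192, 177 and 190.2 CPM in cKO, a small fall without overlap (log2 fold change -0.18, SE 0.046, edgeR adjusted p = 0.00582). Itga10, a collagen receptor known from cartilage, had mean CPM of 0.895 in WT and 1.33 in cKO, and its difference did not pass the threshold although the groups did not overlap (log2 fold change 0.57, SE 0.25, edgeR adjusted p = 0.0886). A predicted gene, Gm42957, shares 33.5% of the exon bases of Itga10 on the same strand, and reads that fell on these bases were not counted.

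Markers of fibroblasts and smooth muscle are given beside these receptors. Of 7 tested fibroblast markers 4 were called higher and 1 lower in cKO, and of 12 smooth muscle markers 7 were called higher and 1 lower. Their part in the rises of Itga11, Itga1 and Itga8 was not tested. Itga7, the laminin receptor of muscle described below, fell (log2 fold change -0.99) while most of these smooth muscle markers were higher. A link between Itga7 and these markers was not tested.

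The most abundant alpha subunit per length was Itga5 (chromosome 15, 103344286 to 103366763), which forms the main fibronectin receptor with Itgb1. It was at 827, 884 and 797 CPM in WT and 732, 780.0 and 636 CPM in cKO. The difference was small, with replicate 3 the lowest of the cKO libraries and no overlap (log2 fold change -0.22, SE 0.066, edgeR adjusted p = 0.0141). It was no longer called without cKO replicate 3 (adjusted p = 0.0521) or without WT replicate 2 (0.0757). Itgav (chromosome 2, 83724397 to 83806916), which pairs with several beta subunits to bind vitronectin, fibronectin and latent TGF-beta, was at 597, 649.6 and 599 CPM in WT and 685, 693 and 649 CPM in cKO. The groups overlapped slightly, cKO replicate 3 lying just below WT replicate 2 (log2 fold change 0.14, SE 0.048, edgeR adjusted p = 0.0346). The call was lost when cKO replicate 1, WT replicate 1 or WT replicate 3 was left out (adjusted p = 0.108, 0.131 and 0.130).

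Itga2b (chromosome 11), the platelet subunit that binds fibrinogen with Itgb3, was at 2.19, 1.07 and 1.41 CPM in WT and 2.81, 2.55 and 3.02 CPM in cKO, from 20 to 50 counts per library. WT replicate 1 was far above the other WT libraries but below all cKO libraries (log2 fold change 0.85, SE 0.24, edgeR adjusted p = 0.0116), and without WT replicate 2 the adjusted p-value was 0.0627. Of 5 platelet markers the 2 that were tested, Pf4 and Ppbp, were higher in cKO, whereas the defining markers Gp9 and Gp1ba had 0 counts in every library.

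Of 3 laminin-binding alpha subunits 1 was called. Itga7 (chromosome 10, 128933818 to 128958282), the laminin receptor of muscle, was at 26.1, 19.8 and 20.3 CPM in WT and 12.03, 10.98 and 10.2 CPM in cKO. It fell to 50.1% of the WT mean (log2 fold change -0.99, SE 0.11, edgeR adjusted p = 1.3e-05), a fall close in size to that of Lama1, and the groups were far apart. Itga3 and Itga6, the laminin receptors of epithelia and many other cells, were not called. Their means were 146 and 119 CPM in WT and 143 and 117 CPM in cKO, and the 95% intervals of the log2 difference ran from -0.14 to 0.07 for Itga3 and from -0.13 to 0.09 for Itga6. Both lie above the interval of Itga7, which ran from -1.21 to -0.77.

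Itga9 (chromosome 9, 118606690 to 118901003), a receptor for tenascin C that is expressed in smooth muscle, was at 56.3, 59.1 and 59.7 CPM in WT and 74.00, 76.6 and 73.5 CPM in cKO. The libraries of each group were tightly grouped and did not overlap (log2 fold change 0.36, SE 0.05, edgeR adjusted p = 7.4e-05). Its relative Itga4, a receptor for VCAM1, had means of 6.59 and 6.29 CPM and was not called (interval of the log2 difference from -0.31 to 0.19, edgeR adjusted p = 0.731).

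**Figure D4:**
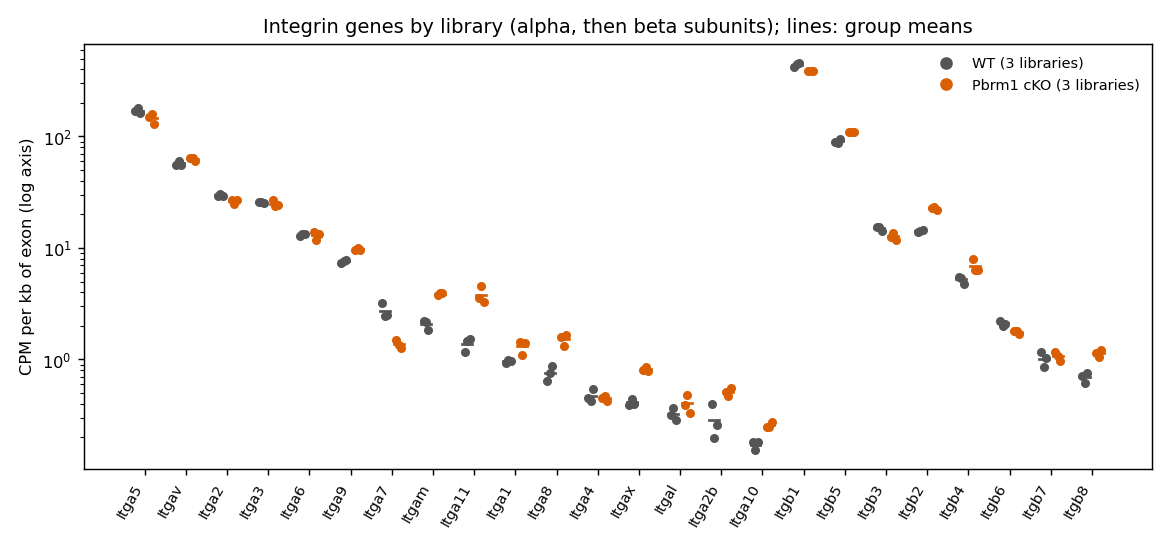
Level of each tested integrin subunit per length (CPM per kilobase of exon, log axis) in each library, alpha subunits on the left and beta subunits on the right, with lines at the means of 3 WT and 3 Pbrm1 cKO libraries. Itga5 and Itgb1 lead their classes in both groups and lie lower in cKO, while Itga11, Itga8, Itgam and Itgax show the widest gaps upward and Itga7 the widest gap downward.

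All 6 beta subunits that are not confined to leukocytes differed, 3 in each direction. Itgb1 (chromosome 8, 128685654 to 128733200), the common partner of many alpha subunits, was the most abundant integrin gene, at 1720.5, 1831 and 1849 CPM in WT and 1591, 1582 and 1591 CPM in cKO. The cKO libraries were almost equal and lay below the WT libraries by a small margin (log2 fold change -0.18, SE 0.044, edgeR adjusted p = 0.00434). Itgb5 (chromosome 16, 33829665 to 33949338), a partner of Itgav, was at 315, 311 and 335 CPM in WT and 387, 388 and 391 CPM in cKO, without overlap (log2 fold change 0.28, SE 0.044, edgeR adjusted p = 0.000176). Itgb3 (chromosome 11, 104608000 to 104670476), the other main partner of Itgav in mesenchymal cells, was at 90.5, 91.2 and 84.5 CPM in WT and 74.6, 80.95 and 69.1 CPM in cKO. It was lower in every cKO library (log2 fold change -0.24, SE 0.06, edgeR adjusted p = 0.00509).

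Itgb8 and Itgb6 pair with Itgav to bind and activate latent TGF-beta. Itgb8 (chromosome 12) rose from 7.80, 6.84 and 8.31 CPM in WT to 12.7, 11.6 and 13.6 CPM in cKO (log2 fold change 0.72, SE 0.11, edgeR adjusted p = 0.000127). Itgb6 (chromosome 2), an epithelial subunit, was at 15.8, 14.3 and 14.9 CPM in WT and 12.8, 12.9 and 12.1 CPM in cKO. Its groups did not overlap, but the call (log2 fold change -0.25, SE 0.086, edgeR adjusted p = 0.0287) was lost with DESeq2 (adjusted p = 0.0967). Itgb4 (chromosome 11), which pairs with Itga6 in hemidesmosomes, was at 38.9, 38.1 and 33.4 CPM in WT and 55.3, 44.8 and 44.97 CPM in cKO, and replicate 1 was the highest cKO library (log2 fold change 0.40, SE 0.086, edgeR adjusted p = 0.00213). Per 1000 CPM of epithelial markers, Itgb4 overlapped between the groups (30.7 ± 3.62 in WT and 32.5 ± 3.74 in cKO) and Itgb6 was lower in cKO (12.5 ± 1.16 and 8.47 ± 0.737, without overlap; SD, n = 3).

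As a share of the beta level per length, Itgb1 went from 77.4% ± 0.649 in WT to 71.4% ± 0.231 in cKO and Itgb5 from 15.8% ± 0.529 to 20.1% ± 0.144 (SD, n = 3). As a share of the alpha level, Itga5 went from 54.2% ± 0.714 to 48.9% ± 2.45 and Itgav from 18.3% ± 0.275 to 21.3% ± 0.470. None of these overlapped, each with the smallest exact permutation p of 0.1 (adjusted 0.125). Over all integrin and laminin chains, 28 of 35 shares did not overlap. Shares within a class, integrin or laminin, depend on each other, since a change in any chain moves the others. Itgal, for example, overlapped between the groups in CPM but not as a share. The alpha integrin genes summed to 312 ± 12.5 CPM per kilobase in WT and 296 ± 16.5 in cKO, with overlapping groups, and the beta genes to 570 ± 18.4 and 545 ± 1.21 (SD, n = 3). The alpha sum over the beta sum was 0.549 ± 0.0277 in WT and 0.544 ± 0.0297 in cKO, again with overlap.

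Itgb2, the shared beta subunit of white blood cell integrins, and 2 of 3 tested leukocyte alpha subunits were higher in cKO, beside leukocyte markers that were also higher. Itgb2 (chromosome 10, 77530252 to 77565708) was at 42.5, 43.7 and 44.2 CPM in WT and 69.3, 71.03 and 67.2 CPM in cKO (log2 fold change 0.67, SE 0.052, edgeR adjusted p = 3.4e-07). Itgam (chromosome 7, 128062640 to 128118491), the alpha subunit of macrophages and neutrophils, was at 11.1, 10.8 and 9.19 CPM in WT and 18.95, 19.7 and 19.9 CPM in cKO (log2 fold change 0.92, SE 0.091, edgeR adjusted p = 3.2e-06). Itgax (chromosome 7, 128129547 to 128150657), a subunit of dendritic cells and macrophages, was at 1.89, 2.14 and 1.93 CPM in WT and 3.88, 4.08 and 3.80 CPM in cKO (log2 fold change 0.98, SE 0.16, edgeR adjusted p = 0.000318). None of the 3 overlapped between the groups. The level of Itgam per length is uncertain, since the predicted gene Gm49368 shares 68.7% of its exon bases on the same strand and reads that fell on these bases were not counted.

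Itgal, the subunit of lymphocytes and other leukocytes, had means of 2.12 CPM in WT and 2.65 CPM in cKO and was not called (interval of the log2 difference from -0.07 to 0.73, edgeR adjusted p = 0.206). Itgb7, which serves gut-homing lymphocytes, had means of 2.82 and 2.98 CPM and was not called (interval from -0.27 to 0.44, edgeR adjusted p = 0.732). Itgae, Itgad and Itgb2l did not pass the filter on low counts: Itgae had 1 to 4 counts per library, Itgad 0 to 5, and Itgb2l 0 in all 6 libraries, where a count of 3 would have been 0.159 to 0.193 CPM.

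Of 14 leukocyte markers 11 were tested, and 10 of them were called, all higher. Their summed level did not overlap between the groups, and the lymphocyte markers Cd3e and Cd79a and the natural killer and T cell marker Nkg7 did not pass the filter. Per 1000 CPM of leukocyte markers, Itgb2 was at 57.1 ± 1.28 in WT and 63.6 ± 2.13 in cKO, Itgam at 13.6 ± 1.79 and 17.96 ± 0.553, and Itgax at 2.61 ± 0.215 and 3.60 ± 0.0930 (SD, n = 3). These 3 ratios were higher in cKO without overlap, whereas Itgal was at 2.79 ± 0.423 and 2.43 ± 0.389, with overlap. Lyz2, which rose by 0.46 on the log2 scale, made up 59.4% of that sum in WT. Among single markers, Cd53 (log2 fold change 1.03) and Ptprc (1.02) rose by more than Itgb2, Itgam and Itgax, and Fcer1g (0.80), Tyrobp (0.76) and Laptm5 (0.74) rose by more than Itgb2, so that the direction of these ratios depends on the marker. The ratios were chosen after the values were seen and carry no test.

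**Figure D5:**
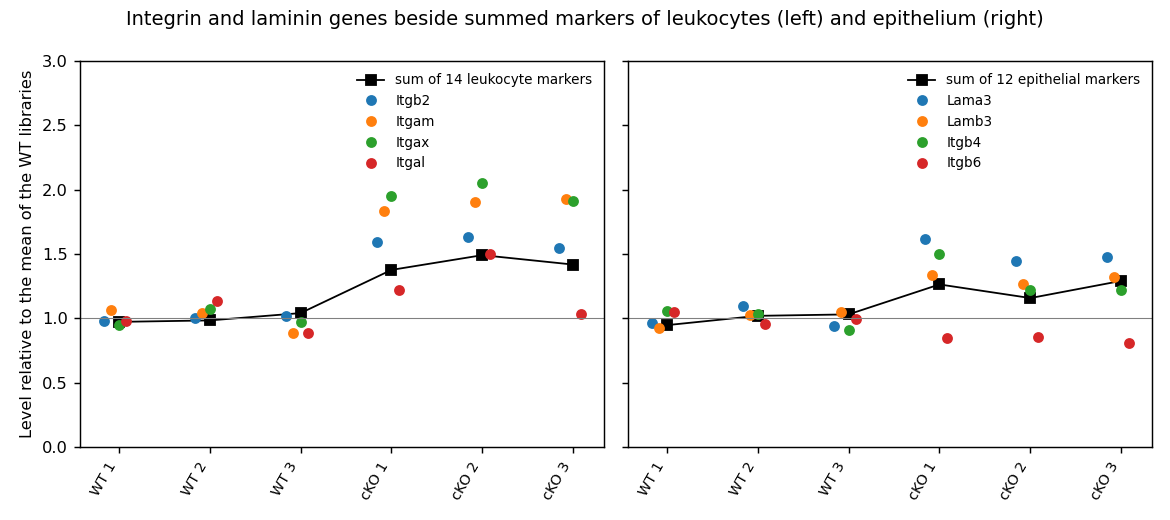
Level of integrin and laminin genes relative to the mean of the WT libraries (y axis) in each library, beside the summed CPM of 14 leukocyte markers (left) and 12 epithelial markers (right, black squares). Itgam, Itgax and Itgb2 lie above the leukocyte sum in all 3 cKO libraries, Lama3 lies above the epithelial sum in all 3, and Itgb6 lies below 1. The sums follow their abundant markers, and single markers such as Ptprc (log2 fold change 1.02) and Epcam (1.07) rose by more than these genes.

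Among neighbouring members, Itga2 and Itga1 lie 21.0 kb apart on chromosome 13 and moved in opposite directions. Itgam and Itgax lie 11.1 kb apart on chromosome 7 and both rose.

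Other genes of matrix adhesion are given from lists chosen by function. Of 25 tested genes on a basement membrane list without laminins, 17 (68.0%) were called, beside 43.7% of all tested genes. The 17 were 10 upward and 7 downward, and the median log2 fold change over the 25 was 0.0042. Besides matrix components, the list holds genes of cell proteins linked to them: Sspn, Sgcd, Sgce, Sgcb, Dmd, Utrn, Dag1 and Bcam. The largest changes were those of Col15a1, a collagen of vessel and muscle basement membranes (1.39, SE 0.074), the collagen IV gene Col4a4 (-1.16, SE 0.14) and the dystrophin-associated genes Sspn (1.09, SE 0.10) and Sgcd (1.04, SE 0.14). The main collagen IV genes Col4a1 (0.0042, SE 0.076) and Col4a2 (-0.04, SE 0.078) were not called and are named after their values were seen.

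Of 29 tested genes for other integrin ligands, 25 (86.2%) were called, beside 43.7% of all tested genes. The 25 were 14 higher and 11 lower, and the median over the 29 was 0.24. The matricellular gene Ccn3 (1.77, SE 0.27), Vwf (1.71, SE 0.18), which binds platelet and endothelial integrins, and Icam1 (0.91, SE 0.065), a ligand of the leukocyte integrins, rose, and Spp1 (-1.14, SE 0.11), which encodes osteopontin, fell. The fibronectin gene Fn1, ligand of Itga5, was lower (-0.33, SE 0.072), and Npnt, which encodes the Itga8 ligand nephronectin, was lower (-0.85, SE 0.071) while its receptor gene rose; both ligand genes are named after their values were seen. Of 41 tested genes for adaptors and regulators of integrin adhesion, 24 (58.5%, beside 43.7% of all tested genes) were called. The 24 were 12 in each direction, and the median over the 41 was -0.0062. The tensin gene Tns4 (-1.58, SE 0.22) fell, and Lims2, a partner of integrin-linked kinase (1.11, SE 0.10), Fermt3 (0.84, SE 0.083) and Fermt1 (0.71, SE 0.067) rose, the last 2 encoding the kindlins of blood cells and of epithelia.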

How the data were processed

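RNA-seq of 6 libraries was analysed from 1 table of read counts per gene that the authors deposited, with 3 WT and 3 Pbrm1 cKO libraries grouped by the labels. Per the submitters' processing notes, reads were trimmed with cutadapt and aligned with HISAT2 (genome build GRCm38.p5). Per the file headers, whole-number counts over exons were made with featureCounts 1.6.4 on the reverse strand and the GENCODE M18 annotation, which leaves out reads shared by genes on the same strand and reads that map to several places. The deposited exon length per gene, another column of the same table, was used for levels per length. A strand-specific kit with random and poly(T) priming was used.

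Differences were tested with edgeR 4.0.16 (R 4.3.3; two-sided quasi-likelihood F-test, TMM factors, filterByExpr, Benjamini-Hochberg over 15376 genes, threshold 0.05). The same normalization was used for CPM. Intervals of log2 differences are the estimate ± 1.96 SE (95%). Alternatives were DESeq2 1.42.0, limma-voom (limma 3.58.1), other scalings and filters, a stricter threshold, a replicate block and leaving out each library. Shares within a class were compared with an exact permutation test. The edgeR step was tested on simulated data. Libraries held 15390818 to 18947947 counts, and floors from counts cover counting error only. The intervals rest on the SE of the edgeR fit, which also takes in the spread between libraries. Any pair of libraries within a group differed beyond counting noise (chi-square per gene 6.32 and 7.48 for the 2 pairs with cKO replicate 2 and 2.77 to 3.88 for the other pairs). Every column was assigned to a sample.

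All members but 1, which is not reported here, are named; per-library values are given for called members and the 3 highest per length of each class, and up to 4 called genes with the largest changes are named from each other list. Members, lists and alternatives were chosen with earlier results of these data known.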

Additional observations from a re-analysis of the deposited data

How the results depend on the processing

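Of 455 member values under 13 alternatives, 11 lost the call, 0 gained one and 6 changed sign, in 9 of 35 members. Laminin genes called numbered 10 in each alternative. Integrin genes called numbered 18 in the fit reported, 17 under DESeq2, 14 at an adjusted p-value under 0.01 and 16 to 18 when each library was left out in turn; adhesion adaptor genes fell from 24 to 15 at 0.01, by construction, and were 17 to 27 when each was left out. The calls of Itga5, Itgav, Itga2b and Itgb6 that were lost are given above, and that of Itgb6 was also lost without cKO replicate 1 (adjusted p = 0.0623), cKO replicate 3 (0.0867), WT replicate 1 (0.0986) and WT replicate 3 (0.0609). Sign changes were seen in uncalled members alone, with log2 fold changes, each library left out in turn, from -0.094 to 0.0063 for Itga3, -0.141 to 0.045 for Itga4, -0.063 to 0.050 for Itga6, -0.035 to 0.196 for Itgb7 and -0.078 to 0.146 for Lamc3. The cause was not tested. Across all fits, the median log2 fold change of all tested genes was at most 0.0174 in absolute size. Of 245 share values under the alternatives, 10 moved beyond the spread between replicates. Leaving out 1 of 3 libraries cannot move a mean that far, so all 10 were among the 35 values without division by gene length. Another 7 changed sign under that setting or without 1 library, in the shares of Itga3, Itga4 and Itga6, whose groups overlapped.

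Same-numbered libraries had correlations of -0.0243, 0.0353 and 0.0928 in their deviations from the group means, taken over all tested genes. With 3 libraries per group these low values cannot exclude that replicate numbers pair the libraries. With the replicate number as a block, 18 integrin and 10 laminin genes were called, and 6908 genes in all. Also called were 24 integrin ligand genes, 17 genes of the basement membrane list and 26 adhesion adaptor genes. Depth limits Itga10, Itga2b, Lamc3, Itgax and Itgal, whose lowest counts were 15, 20, 23, 32 and 32.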
